A study of Rattus norvegicus with 26 samples.

Results

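The genes described here are the Wnt ligands, their receptors and antagonists, and the cytoplasmic and nuclear proteins that carry their signal, in rat multipotent adult progenitor cells (rMAPCs) that were turned towards smooth muscle cells (SMCs). Members were taken by gene name from the array's annotation: every *Wnt*, *Fzd*, *Dkk* and *Sfrp* gene with a number, together with *Frzb*, *Wif1*, *Lrp5*, *Lrp6*, *Ror1*, *Ror2*, *Porcn*, *Dvl1*, *Dvl3*, *Axin1*, *Axin2*, *Apc*, *Gsk3b*, *Ctnnb1*, *Tcf7* and *Lef1*, with the brightest probe standing for each gene. There were 49 such genes on the array, of which 35 were tested because their probe was well above background on all arrays of at least 1 group. They are part of 24442 tested probes among 41012 gene probes. No probe carried the names *Tcf7l1*, *Tcf7l2* or *Dvl2*.

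RNA was measured on 26 one-colour Agilent arrays in 9 groups. Cl19 and 3c3 are female Fischer rat lines from bone marrow, Cl19 of a rat of 3 weeks and 3c3 of embryonic stage E18, and both express *Oct4*. Each is a single clone, so that a difference between them is a difference between 2 clones. Both were kept for 6 days in basal rMAPC medium with TGFβ and PDGF-bb and sampled on d0, d2, d4 and d6, with 3 arrays per clone and day, and no group without these factors was measured after d0. RNA of primary SMCs was measured on 2 arrays: its labels name rat aortic RNA bought from Tebu Bio, whereas the methods name primary rat SMCs from Cell Applications. The methods call the 3 arrays of a day biological replicates, whereas the 2 primary SMC arrays are numbered replicates of bought RNA whose spread may be technical, and the number of arrays limited the precision.

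Wnt proteins are secreted, lipid-modified ligands that bind Frizzled receptors together with the co-receptors Lrp5 or Lrp6. Their binding stops the complex of Axin, Apc and Gsk3 from marking β-catenin for destruction, and β-catenin then acts with Tcf and Lef proteins on target genes, whereas Ror receptors pass on Wnt signals that do not need β-catenin. Secreted Frizzled-related proteins, Wif1 and most Dkk proteins act outside the cell on the ligands or the co-receptors. In vessels the pathway is known for its part in the growth of SMCs and in the development of the vessel wall.

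Probes of 6 genes with large changes in both clones are shown, since each array value is the brightness of such a 60-base probe. Their place within the transcripts was not looked up. Positions come from the array's annotation and refer to rn4, a rat assembly. For *Sfrp5*, *Wnt5b* and *Wnt7a* the probe shown is a second one, and its own change is given with the gene. The capitals mark the longest run of bases that any of the 6 probes share, 11 bases in the *Wnt5b* and *Wnt7a* probes. Of the 18 bases that can be aligned from there on, 16 were identical between these ligands.
Sfrp5, second probe, chr1:248655881-248655940: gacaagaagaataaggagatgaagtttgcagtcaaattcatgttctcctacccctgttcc
Fzd2, chr10:91710239-91710298: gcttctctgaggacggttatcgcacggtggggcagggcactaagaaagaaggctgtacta
Wnt4, chr5:156082786-156082845: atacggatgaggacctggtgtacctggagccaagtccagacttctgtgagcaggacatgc
Wnt5b, second probe, chr4:155754667-155754726: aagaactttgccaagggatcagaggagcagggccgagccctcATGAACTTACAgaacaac
Wnt7a, second probe, chr4:125542542-125569810, a range that spans an intron: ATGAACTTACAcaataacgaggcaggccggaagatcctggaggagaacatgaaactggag
Wnt7b, chr7:123534116-123534175: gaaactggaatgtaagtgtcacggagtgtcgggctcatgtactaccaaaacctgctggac

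Values below are log2 intensities after quantile normalization over all arrays, so that a difference of 1 is a doubling. A probe was called well above background as the scanner software set it. Of the 43379 gene features, 52.7% to 61.4% were well above background on Cl19 arrays, 43.2% to 57.1% on 3c3 arrays and 43.6% to 44.5% on primary SMC arrays. Each slide carried the 4 days of 1 replicate of 1 clone, and Cl19, 3c3 and primary SMC arrays were scanned on separate days. Changes between days therefore lay within slides. On every slide of the clones d0 lay at position 1, d2 at 2, d4 at 3 and d6 at 4. A change between days therefore cannot be told apart from one between positions on the slide. A difference in level between the clones, or between primary SMCs and d6 cells, cannot be told apart from one between slides or scan days.

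The array labelled Cl19 d2 replicate 1 stood nearer to 3c3 than to its own group. Over all tested probes its root mean square distance was 0.382, 0.537 and 0.428 from the 3c3 d2 arrays, against 0.917 and 0.876 from Cl19 d2 replicates 2 and 3. The Wnt genes showed this as well: over the 35 tested members it lay 1.70 from the mean of replicates 2 and 3 and 0.42 from the mean of 3c3 d2, and 28 members were nearer to 3c3. It was kept under its label, and the d2 calls in Cl19 are given with and without it. On the slide of 3c3 replicate 3 the background was raised: the median signal of its negative controls was 62.5 to 79.0 against 44.9 to 48.0 on the other arrays.

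**Figure D1:**
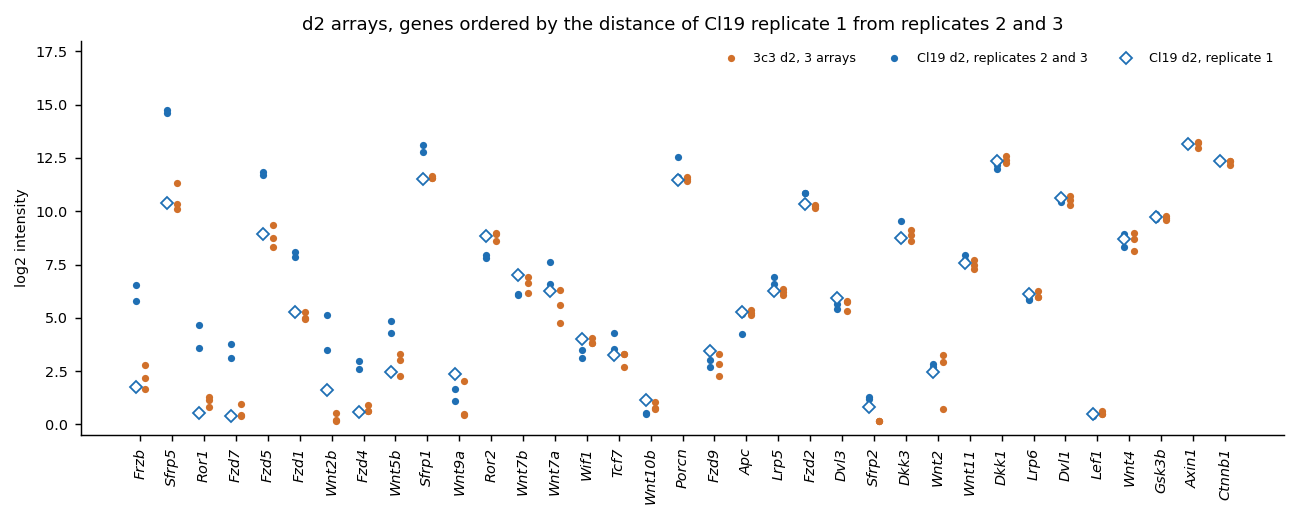
Log2 intensity (vertical axis) of the 35 tested Wnt genes on the 6 arrays of d2, with genes ordered by the distance of Cl19 replicate 1 (open diamonds) from Cl19 replicates 2 and 3 (blue points). The diamonds lie nearer to the mean of the 3c3 arrays (orange points) for 28 of the 35 genes, and *Sfrp5* stood at 10.37 on replicate 1 against 14.76 and 14.59 on replicates 2 and 3.

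The cells were checked against markers by summed intensity of each list. Smooth muscle markers (6 of 7 on the array, *Myh11* not among them) rose from 1835 to 2223 on d0 to 61140 to 73090 on d6 in Cl19, and from 1435 to 1679 to 28938 to 45968 in 3c3. On the primary SMC arrays their sum was 94047 to 96296, and *Tagln* was the brightest of them there and on d6. Of the 6 markers, 5 rose by limma in both clones, and *Myocd* did not rise in either. In 3c3 *Myocd* was called lower on d6, from 2.47 to 1.27. There 1 of 3 d0 arrays and no d6 array was well above background. Epithelial markers (4 of 5 on the array) were high in the clones on every day, with *Krt18* as the brightest, and their sum went from 131900 to 141290 on d0 to 242973 to 258233 on d6 in Cl19 and from 135069 to 144301 to 219842 to 235278 in 3c3. In primary SMCs it was 1435 to 1502, with *Cdh1* and *Krt19* not well above background. Primitive endoderm markers went the other way, from 44756 to 47266 to 18398 to 28009 in Cl19 and from 45567 to 49212 to 34005 to 35715 in 3c3. Of their 7 genes 6 fell in Cl19 and 4 in 3c3, while *Foxa2*, the brightest of them on d6, rose in both clones. *Pou5f1*, the gene of Oct4, read 1192 to 1273 on d0 and 1 to 4 on d6 in Cl19, against 2836 to 3179 and 113 to 250 in 3c3. The sum of 4 endothelial markers went from 122 to 148 to 13 to 22 in Cl19 and from 94 to 104 to 48 to 57 in 3c3, where it was 55 to 321 on d4 with *Kdr* as the brightest, and that of 2 blood markers stayed between 49 and 162 on all arrays of the clones. Mesenchymal markers summed to 181519 to 183751 in primary SMCs and to 5468 to 22426 in d6 cells, in which *Thy1* was not well above background. The part of these cell types in the Wnt results was not tested, and in such bulk RNA fewer cells of a type and less RNA per cell cannot be told apart.

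Over the time course 26 of the 35 members changed in Cl19 and 16 in 3c3, by limma's F-test of the later days against d0 at a p of 0.05 after Benjamini-Hochberg adjustment over all tested probes. The same test passed 54.3% of all tested probes in Cl19 and 50% in 3c3. Both clones shared 14 members, which were 14 of the 26 in Cl19 and 14 of the 16 in 3c3, and 38.7% of all tested probes passed in both. *Lrp5*, *Lrp6*, *Axin1*, *Apc*, *Dvl3*, *Wnt2* and *Wnt9a* passed in neither. The highest mean fell on d6 for 14 of the 26 in Cl19 and for 10 of the 16 in 3c3, and for 29.0% and 30.2% of all probes past the same test. With the methods' own test, on the area between a probe's course and its d0 level, 20 members passed in Cl19 and 7 in 3c3. That test called 25.3% and 15.8% of all probes.

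From d0 to d6, 19 members rose and 4 fell in Cl19, against 22.0% and 30.3% of all tested probes. In 3c3, 12 rose and 4 fell, against 19.7% and 28.6% of all tested probes, and the counts by role given further on stand against these shares too. The median change was 1.24 over the 35 members in Cl19 and 0.39 in 3c3, with -0.20 and -0.21 over all tested probes. With normexp background correction the members' medians were 0.49 and 0.03, beside -0.06 over all tested probes in both clones. A probe could be tested through 1 bright group alone, as *Fzd4*, *Wnt10b*, *Wnt2*, *Wnt9a*, *Lef1* and *Sfrp2* were. The 14 members that were well above background on all 26 arrays had a median change of 0.86 in Cl19 (8 higher, 2 lower) and 0.44 in 3c3 (7 higher, none lower). Over all 49 genes the medians were 0.76 and 0.35. No share or median over all probes was taken for either choice, so that these values stand without a matched comparison. The genes that rose in both clones were 10, namely *Wnt4*, *Wnt5b*, *Wnt7a*, *Fzd2*, *Fzd5*, *Sfrp5*, *Frzb*, *Wif1*, *Gsk3b* and *Ctnnb1*, which were 10 of the 19 in Cl19 and 10 of the 12 in 3c3, while 13.2% of all tested probes rose and 20.4% fell in both. The 3c3 calls of *Gsk3b* and *Ctnnb1* were lost with 75th percentile scaling, and that of *Frzb* with normexp correction and with a floor. *Frzb* did not pass the F-test over the time course in 3c3. *Wnt7b* fell in both clones, and *Porcn* changed in opposite directions. Of the 4 counted as lower in 3c3, *Fzd9* and *Sfrp2* had no d0 or d6 array well above background, and with a floor their sign turned.

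**Figure D2:**
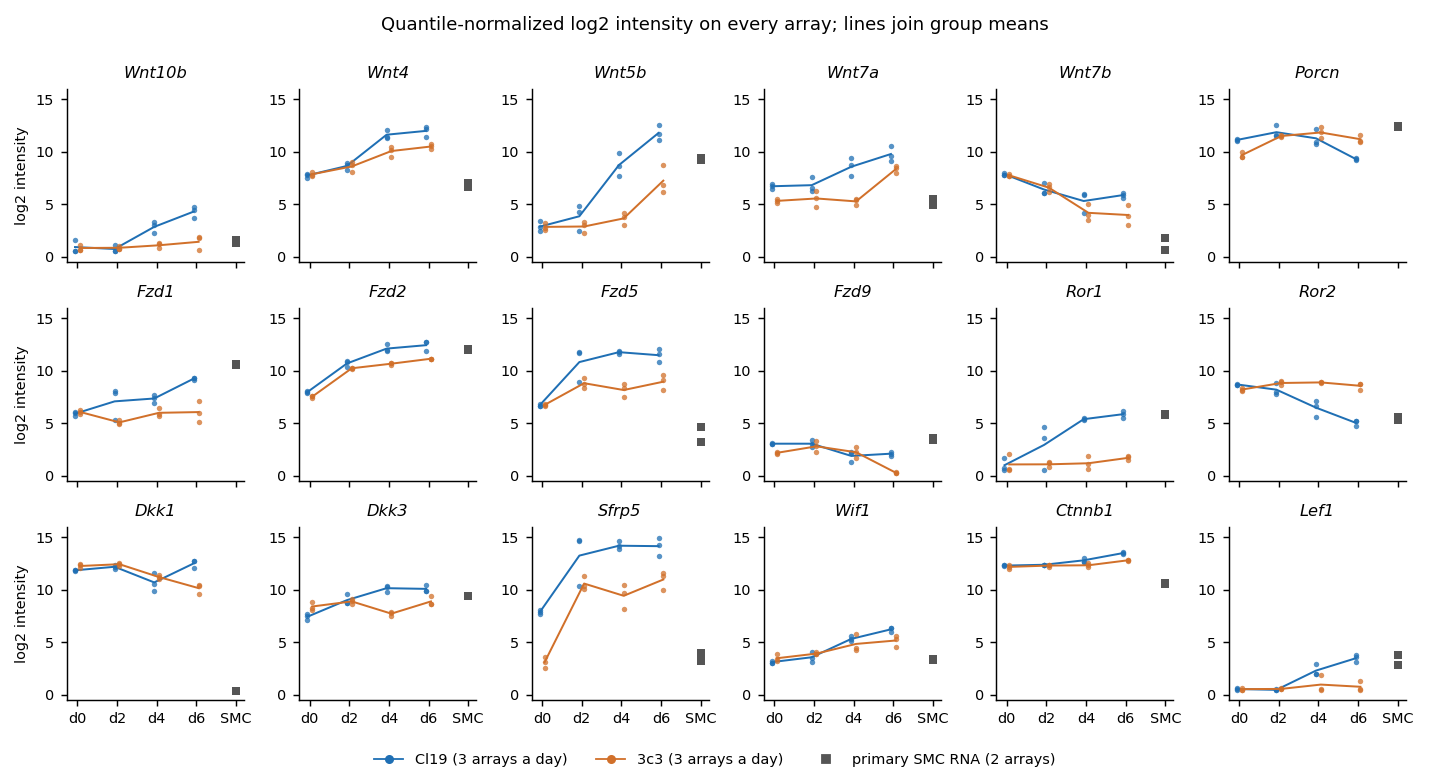
Log2 intensity (vertical axis) on every array by day of differentiation (horizontal axis) in Cl19 (blue) and 3c3 (orange), 3 arrays a day with lines through the group means, and on 2 arrays of primary SMC RNA (grey squares). *Wnt5b* rose late in both clones, *Sfrp5* and *Fzd2* were high from d2, and *Ror2* fell in Cl19 while its 3c3 arrays stayed between 8.11 and 8.97.

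Among the ligands, 9 of the 18 *Wnt* genes on the array were tested. On d6, 6 rose and 1 fell in Cl19, and 3 rose and 1 fell in 3c3. *Wnt5b*, which encodes a ligand best known for signals that do not need β-catenin, had the largest rise of any member in Cl19. Its values there were 2.80, 2.42 and 3.38 on d0, 2.45, 4.85 and 4.28 on d2, 7.72, 8.63 and 9.86 on d4, and 11.74, 12.52 and 11.13 on d6. In 3c3 *Wnt5b* was at 2.76, 2.59 and 3.18 on d0, at 3.32, 2.28 and 3.04 on d2, at 3.79, 3.00 and 4.17 on d4, and at 8.72, 6.20 and 6.82 on d6. The d6 arrays lay above every earlier array in both clones, and the Cl19 arrays were already apart from their d0 on d4 while those of 3c3 were not all. The rise to d6 was 8.93 in Cl19 (standard error 0.65, adjusted p = 1.4e-09 from limma) and 4.41 in 3c3 (standard error 0.65, adjusted p = 1.55e-05). The second *Wnt5b* probe rose by 6.94 and 3.22.

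*Wnt4*, a ligand with roles in kidney and gonad formation, rose more gradually. It stood in Cl19 at 7.55, 7.89 and 7.82 on d0, at 8.70, 8.31 and 8.95 on d2, at 11.34, 11.45 and 12.09 on d4, and at 12.15, 12.39 and 11.44 on d6. The 3c3 values of *Wnt4* were 7.72, 7.80 and 8.05 on d0, 8.70, 8.12 and 8.998 on d2, 10.18, 9.53 and 10.50 on d4, and 10.52, 10.23 and 10.76 on d6. In each clone the d0 arrays were the lowest, those of d2 lay just above them and those of d4 and d6 overlapped well above both. By d6 *Wnt4* had changed by 4.24 in Cl19 (18.9-fold, adjusted p = 7.35e-10 from limma) and 2.65 in 3c3 (6.26-fold, adjusted p = 5.49e-07).

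*Wnt7a*, which in embryos takes part in limb patterning, rose late as well. In Cl19 its probe read 6.92, 6.73 and 6.50 on d0, 6.25, 7.63 and 6.57 on d2, 8.69, 7.66 and 9.38 on d4, and 9.64, 10.57 and 9.16 on d6. In 3c3 *Wnt7a* read 5.30, 5.16 and 5.50 on d0, 6.30, 4.76 and 5.60 on d2, 4.96, 5.48 and 5.38 on d4, and 7.96, 8.60 and 8.45 on d6. The 3c3 arrays of d0, d2 and d4 overlapped and only those of d6 stood apart, whereas the Cl19 arrays of d4 already lay above those of d0. The changes to d6 were 3.07 in Cl19 (8.42-fold, adjusted p = 8.31e-06 from limma) and 3.02 in 3c3 (8.09-fold, adjusted p = 1.53e-05), while the probe shown above changed by 3.20 and 3.51 and the remaining *Wnt7a* probe by 3.72 and 3.56.

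*Wnt7b*, its close relative and a ligand of lung and bone development, moved the opposite way. Its Cl19 values were 8.01, 7.78 and 7.81 on d0, 7.01, 6.11 and 6.09 on d2, 5.86, 4.12 and 5.95 on d4, and 5.93, 6.10 and 5.61 on d6. In 3c3 *Wnt7b* was at 7.74, 7.67 and 7.86 on d0, at 6.93, 6.18 and 6.64 on d2, at 5.01, 4.01 and 3.53 on d4, and at 4.96, 3.92 and 3.04 on d6. All later arrays lay below all d0 arrays in both clones. From d0 to d6 the change of *Wnt7b* was -1.99 in Cl19 (3.97-fold lower, adjusted p = 0.00208 from limma) and -3.78 in 3c3 (at least 10.5-fold lower, adjusted p = 4.27e-06), where 2 of 3 d6 arrays were well above background. This lower limit divides the bright group's mean by the mean over the dim group's arrays of whichever is higher, the probe's own value or that array's lowest signal well above background. Like the limits below, it holds for the main processing, and under other choices the 3c3 change was as small as -1.61.

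*Wnt10b*, a ligand that holds back fat cell formation, appeared in Cl19 late. Its Cl19 values were 1.59, 0.59 and 0.59 on d0, 1.15, 0.55 and 0.51 on d2, 2.23, 2.98 and 3.33 on d4, and 3.74, 4.73 and 4.46 on d6. In 3c3 *Wnt10b* stayed between 0.62 and 1.85 on all 12 arrays, none of them well above background. The probe entered the test through Cl19 d6 alone. On Cl19 d0 it was not well above background on any array, and d6 exceeded it by at least 3.81-fold (limma, adjusted p = 1.51e-07). With normexp correction the Cl19 change was 0.38 on the log2 scale, so that this limit does not hold under that correction. In 3c3 the fitted change was 0.59 (adjusted p = 0.18), and it passed at 0.99 without 3c3 d6 replicate 2 (adjusted p = 0.0278), on values below background.

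*Wnt11*, a ligand of heart and kidney development, rose in Cl19 from 7.15 ± 0.11 to 8.39 ± 0.21 (SD, n = 3, limma adjusted p = 6.84e-05) and went from 7.27 ± 0.28 to 7.66 ± 0.17 in 3c3 (adjusted p = 0.147). *Wnt2b* was not well above background on d0 in Cl19 and was at least 5.67-fold higher on d6, at 4.88 ± 0.90 (adjusted p = 0.00144), whereas 1 d0 array of 3c3 and none of its later ones had *Wnt2b* well above background. The *Wnt2b* probe entered the test through Cl19 d4 and d6 alone, where it was bright, so that the filter favoured its call. *Wnt2* and *Wnt9a* did not pass in either clone, with changes of -0.89 and 1.34 in Cl19 and -0.89 and 0.10 in 3c3. The ligands left untested were *Wnt1*, *Wnt3*, *Wnt3a*, *Wnt5a*, *Wnt6*, *Wnt8a*, *Wnt8b*, *Wnt9b* and *Wnt10a*, each too dim in every group.

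*Porcn*, the acyltransferase that puts the lipid on Wnt proteins before they leave the cell, was the member that changed in opposite directions. In Cl19 it read 11.10, 11.04 and 11.23 on d0, 11.48, 11.61 and 12.52 on d2, 12.17, 10.75 and 10.93 on d4, and 9.41, 9.27 and 9.26 on d6. In 3c3 *Porcn* read 10.00, 9.48 and 9.53 on d0, 11.59, 11.42 and 11.51 on d2, 12.33, 11.33 and 11.87 on d4, and 11.59, 10.97 and 11.04 on d6. All d6 arrays of Cl19 lay below its earlier arrays, and all later arrays of 3c3 lay above its d0 arrays. The change to d6 was -1.81 in Cl19 (3.50-fold lower, standard error 0.32, adjusted p = 9.12e-05 from limma) and 1.53 in 3c3 (2.89-fold higher, adjusted p = 0.000613), and the second *Porcn* probe changed by -1.05 and 0.98 (adjusted p = 0.0173 and 0.0278).

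Of the 8 *Fzd* genes on the array, which encode the Wnt receptors proper, 6 were tested. On d6, 4 rose and 1 fell in Cl19, and 2 rose and 1 fell in 3c3. *Fzd2* had risen by d2 in both clones. In Cl19 *Fzd2* stood at 7.91, 7.95 and 8.03 on d0, at 10.36, 10.88 and 10.84 on d2, at 11.86, 11.95 and 12.51 on d4, and at 12.70, 12.69 and 11.90 on d6. In 3c3 *Fzd2* stood at 7.58, 7.61 and 7.36 on d0, at 10.29, 10.17 and 10.23 on d2, at 10.72, 10.55 and 10.73 on d4, and at 11.13, 11.16 and 11.13 on d6. No array of d0 overlapped with a later one, and in 3c3 the 4 days were in order with no overlap at all. By d6 *Fzd2* had changed by 4.47 in Cl19 (22.1-fold, standard error 0.20, adjusted p = 2.43e-12 from limma) and 3.62 in 3c3 (12.3-fold, adjusted p = 5.84e-11).

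*Fzd5*, a receptor needed for the vessels of the yolk sac and placenta, reached its level by d2. In Cl19 *Fzd5* was at 6.80, 6.67 and 6.67 on d0, at 8.95, 11.83 and 11.69 on d2, at 11.64, 11.89 and 11.76 on d4, and at 11.60, 10.78 and 12.05 on d6. In 3c3 *Fzd5* was at 6.73, 6.66 and 6.81 on d0, at 9.34, 8.33 and 8.76 on d2, at 8.70, 7.45 and 8.32 on d4, and at 9.55, 8.19 and 9.11 on d6. Both clones started at the same level, and every later array lay above every d0 array. From d0 to d6 the change of *Fzd5* was 4.77 in Cl19 (27.2-fold, adjusted p = 1.03e-06 from limma) and 2.22 in 3c3 (4.65-fold, adjusted p = 0.00352).

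*Fzd1*, whose product can pass Wnt signals to β-catenin, rose in Cl19. Its Cl19 values were 5.70, 5.95 and 6.04 on d0, 5.27, 8.10 and 7.86 on d2, 6.97, 7.68 and 7.41 on d4, and 9.13, 9.29 and 9.32 on d6. In 3c3 *Fzd1* was at 6.29, 6.08 and 5.85 on d0, at 4.93, 5.28 and 5.01 on d2, at 6.41, 5.71 and 5.84 on d4, and at 7.11, 5.11 and 5.95 on d6. The Cl19 d6 arrays lay close together and above all earlier ones, while in 3c3 the d6 arrays spread around those of d0. The change to d6 was 3.35 in Cl19 (10.2-fold, adjusted p = 2.24e-05 by limma) and -0.02 in 3c3 (adjusted p = 0.981), a value whose sign turned with the scaling.

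*Fzd7* and *Fzd9* were dim. *Fzd7* was not well above background on any Cl19 array of d0 and stood at 4.80, 4.45 and 4.95 on d6, a rise of at least 5.11-fold (limma, adjusted p = 2.72e-05). Its probe entered the test through Cl19 d4 and d6 alone, where it was bright, so that the filter favoured this call. In 3c3 *Fzd7* was well above background on 1 of 3 d6 arrays, with a fitted change of 1.33 (adjusted p = 0.124). *Fzd9* read 3.03, 2.97 and 3.13 on d0, 3.42, 2.70 and 3.01 on d2, 2.11, 1.29 and 2.22 on d4, and 2.08, 2.29 and 1.90 on d6 in Cl19, where 1 of 3 d6 arrays was well above background. Its change there was -0.95 (adjusted p = 0.00703 from limma), and it did not pass with 75th percentile scaling, normexp correction, the authors' log2 values or a floor. In 3c3 *Fzd9* read 2.08, 2.25 and 2.18 on d0, 3.28, 2.26 and 2.83 on d2, 2.26, 1.66 and 2.76 on d4, and 0.25, 0.26 and 0.35 on d6, with neither d0 nor d6 well above background. *Fzd4* was well above background on all arrays of Cl19 d4 alone, at 3.84 ± 0.57 (SD, n = 3), and its d6 change did not pass in either clone. *Fzd3* and *Fzd6* were not tested.

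The 4 co-receptors were all tested, and on d6 1 rose and 1 fell in Cl19 and none passed in 3c3. *Ror2*, a kinase that binds Wnt5 ligands, fell in Cl19 with no overlap between d0 and d4 or d6. Its Cl19 values were 8.77, 8.63 and 8.68 on d0, 8.83, 7.93 and 7.81 on d2, 7.14, 5.62 and 6.66 on d4, and 5.20, 4.74 and 5.17 on d6. In 3c3 *Ror2* was at 8.12, 8.11 and 8.36 on d0, at 8.91, 8.60 and 8.97 on d2, at 8.89, 8.87 and 8.89 on d4, and at 8.20, 8.70 and 8.77 on d6. The 3c3 arrays of d6 overlapped with those of d0. By d6 *Ror2* had changed by -3.66 in Cl19 (12.6-fold lower, standard error 0.29, adjusted p = 5.68e-09 by limma) and 0.36 in 3c3 (adjusted p = 0.335), which passed with the authors' log2 values (0.67, adjusted p = 0.0351).

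*Ror1*, the related kinase, did the reverse in Cl19. Its Cl19 values were 0.56, 0.69 and 1.72 on d0, 0.53, 3.60 and 4.64 on d2, 5.26, 5.44 and 5.43 on d4, and 6.19, 5.49 and 5.90 on d6. In 3c3 *Ror1* stayed between 0.58 and 2.03, not well above background on any array. The Cl19 arrays of d6 lay at least 11.2-fold above those of d0, which were not well above background (adjusted p = 4.69e-06 from limma), and the fitted change in 3c3 was 0.63 (adjusted p = 0.469). With normexp correction the Cl19 change was 0.88 on the log2 scale, so that this limit does not hold under that correction. The second *Ror1* probe changed by 2.28 in Cl19 and 0.11 in 3c3. *Lrp5* and *Lrp6*, the co-receptors of the β-catenin branch, were well above background in all clone groups and did not pass on d6 in either clone. *Lrp5* went from 5.95 ± 0.74 to 6.29 ± 0.56 in Cl19 and from 5.31 ± 0.89 to 5.46 ± 0.72 in 3c3, and *Lrp6* from 5.78 ± 0.13 to 5.75 ± 0.30 and from 5.84 ± 0.27 to 5.28 ± 0.12 (SD, n = 3).

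Of the 9 secreted antagonists on the array 7 were tested, and on d6 4 rose and none fell in Cl19, while 3 rose and 2 fell in 3c3, of which *Sfrp2* was below background on both days. *Sfrp5*, a secreted Frizzled-related protein that binds Wnt ligands, had the largest rise of any member in 3c3. In Cl19 *Sfrp5* read 7.64, 7.87 and 8.01 on d0, 10.37, 14.76 and 14.59 on d2, 13.83, 14.59 and 14.11 on d4, and 14.25, 13.20 and 14.96 on d6. In 3c3 *Sfrp5* read 3.12, 2.50 and 3.57 on d0, 11.31, 10.08 and 10.33 on d2, 10.41, 8.18 and 9.64 on d4, and 11.62, 9.93 and 11.32 on d6. No d0 array came near a later one in either clone, and the 3c3 arrays lay below the Cl19 arrays of the same day except on d2, where Cl19 replicate 1 lay among those of 3c3. From d0 to d6 the change of *Sfrp5* was 6.30 in Cl19 (78.5-fold, standard error 0.84, adjusted p = 3.47e-06 from limma) and 7.90 in 3c3 (standard error 0.84, adjusted p = 3.59e-07), where 2 of 3 d0 arrays were well above background. The second *Sfrp5* probe, shown above, rose by 6.11 and 5.07 (adjusted p = 7.62e-05 and 0.000633).

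*Frzb*, another Frizzled-related protein, rose in both clones from below background. In Cl19 it went from 0.96, 0.68 and 0.61 on d0 to 1.77, 5.80 and 6.52 on d2, to 4.78, 6.12 and 5.39 on d4, and to 7.03, 6.38 and 7.66 on d6, which was at least 24.97-fold (limma, adjusted p = 5.9e-06). In 3c3 *Frzb* was not well above background on d0 at 1.65, 1.47 and 1.31 and stood at 5.79, 2.57 and 4.05 on d6, with 2 of 3 arrays well above background, at least 2.76-fold higher (adjusted p = 0.0168). The 3c3 call did not hold with normexp correction or with a floor, and the F-test over the time course did not pass in 3c3.

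*Sfrp1* and *Sfrp2*, of the same family, differed from these. *Sfrp1* was high throughout: in Cl19 it went from 10.73 ± 0.11 on d0 to 12.47 ± 0.82 on d2 (12.94 without replicate 1) and 11.49 ± 0.82 on d6 (SD, n = 3), and in 3c3 from 10.91 ± 0.07 to 11.61 ± 0.05 and 10.94 ± 0.80. Its F-test passed in Cl19 (adjusted p = 0.0045 from limma), and its d6 change passed in neither clone (adjusted p = 0.14 and 0.966). *Sfrp2* was not well above background on any array of either clone. A fall in 3c3 from 1.19 ± 1.03 to 0.15 passed the threshold on such values, and no fold is given for it.

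*Wif1*, which binds Wnt ligands directly, rose in steps. Its Cl19 values were 3.04, 3.21 and 3.03 on d0, 4.03, 3.12 and 3.50 on d2, 5.30, 5.06 and 5.55 on d4, and 6.32, 6.34 and 5.97 on d6. In 3c3 *Wif1* was at 3.82, 3.20 and 3.34 on d0, at 4.04, 3.83 and 3.83 on d2, at 4.23, 5.78 and 4.45 on d4, and at 4.55, 5.59 and 5.30 on d6. In Cl19 the d4 and d6 arrays formed separate bands above d0, and in 3c3 they overlapped with each other above d0. The change to d6 was 3.12 in Cl19 (8.69-fold, adjusted p = 1.56e-07 from limma) and 1.69 in 3c3 (3.23-fold, adjusted p = 0.000265). Under other processing choices it was as small as 1.00 in Cl19 and 0.46 in 3c3, though still past the threshold.

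The Dkk genes went different ways. *Dkk1*, whose product blocks the Lrp co-receptors, was bright in both clones on d0. In Cl19 *Dkk1* was at 11.88, 11.78 and 11.84 on d0, at 12.36, 12.17 and 11.99 on d2, at 10.57, 9.87 and 11.61 on d4, and at 12.72, 12.77 and 12.01 on d6. In 3c3 *Dkk1* was at 12.01, 12.31 and 12.42 on d0, at 12.57, 12.28 and 12.41 on d2, at 11.36, 11.19 and 11.03 on d4, and at 10.46, 9.60 and 10.36 on d6. Cl19 dipped on d4 and was back on d6, whereas all 3c3 arrays of d6 lay below all of d4, and these below all of d0. By d6 *Dkk1* had changed by 0.66 in Cl19 (standard error 0.31, adjusted p = 0.0794 from limma) and -2.11 in 3c3 (4.31-fold lower, adjusted p = 1.59e-05). Without Cl19 d6 replicate 3 the Cl19 change passed at 0.91 (adjusted p = 0.0294).

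*Dkk3*, the relative that does not block these co-receptors in most settings, rose in Cl19 from 7.45, 7.66 and 7.12 on d0 to 8.72, 9.56 and 8.70 on d2, to 9.78, 10.36 and 10.26 on d4, and to 9.89, 10.44 and 9.87 on d6. In 3c3 *Dkk3* was at 8.05, 8.83 and 8.27 on d0, at 8.88, 9.14 and 8.61 on d2, at 7.86, 7.79 and 7.47 on d4, and at 9.35, 8.63 and 8.64 on d6. The days in 3c3 differed through a low d4, and its d6 arrays overlapped with d0. From d0 to d6 the change of *Dkk3* was 2.66 in Cl19 (6.30-fold, adjusted p = 1.16e-07 by limma) and 0.49 in 3c3 (adjusted p = 0.149). *Dkk2* and *Sfrp4* were not tested.

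Of the 7 cytoplasmic transducers 6 were tested, and on d6 2 rose in Cl19 and 3 in 3c3, with none lower. *Ctnnb1*, which encodes β-catenin, stood in Cl19 at 12.24, 12.30 and 12.32 on d0, at 12.36, 12.38 and 12.35 on d2, at 12.66, 12.65 and 13.05 on d4, and at 13.62, 13.48 and 13.35 on d6. In 3c3 *Ctnnb1* stood at 12.33, 11.98 and 12.18 on d0, at 12.36, 12.15 and 12.36 on d2, at 12.50, 12.13 and 12.33 on d4, and at 12.80, 12.74 and 12.84 on d6. The d6 arrays were the highest in both clones and the earlier ones of 3c3 overlapped. The change to d6 was 1.20 in Cl19 (2.29-fold, adjusted p = 2.65e-07 from limma) and 0.63 in 3c3 (1.55-fold, adjusted p = 0.000521). In 3c3 it did not pass with 75th percentile scaling (0.32, adjusted p = 0.134), and the second *Ctnnb1* probe rose by 0.97 in Cl19 (adjusted p = 0.000546) and changed by 0.25 in 3c3 (adjusted p = 0.346).

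*Gsk3b*, the kinase that marks β-catenin for destruction, rose by 0.52 in Cl19 and 0.40 in 3c3 (adjusted p = 0.00234 and 0.016 from limma), and in 3c3 it did not pass with 75th percentile scaling. *Dvl1*, an adaptor between Frizzled and the destruction complex, rose in 3c3 by 0.79 (1.73-fold, adjusted p = 0.00321). *Axin1*, a scaffold of that complex, went from 12.98 ± 0.08 to 12.81 ± 0.30 by d6 in Cl19 and from 12.97 ± 0.09 to 13.02 ± 0.15 in 3c3 (SD, n = 3), and *Apc*, its partner, and *Dvl3* also did not pass in either clone.

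Of the nuclear factors that bind DNA with β-catenin, *Lef1* entered the test through Cl19 d6 alone and *Tcf7* through Cl19 d2, d4 and d6, so that both were tested through the clone in which they were bright. *Lef1* was at 0.55, 0.43 and 0.59 on d0, at 0.49, 0.41 and 0.43 on d2, at 1.91, 2.95 and 1.98 on d4, and at 3.53, 3.06 and 3.76 on d6 in Cl19. In 3c3 *Lef1* was not well above background on any array, at 0.46, 0.46 and 0.61 on d0, at 0.49, 0.48 and 0.63 on d2, at 0.51, 0.44 and 1.89 on d4, and at 0.49, 0.45 and 1.27 on d6. The Cl19 arrays of d6 were all well above background and none of d0 was, a rise of at least 2.10-fold (adjusted p = 7.34e-07 from limma), which did not pass with a floor at the lowest signal well above background (1.07, adjusted p = 0.0696). With normexp correction the Cl19 change of *Lef1* was 0.24 on the log2 scale, below this limit. *Tcf7* rose in Cl19 from 2.12 ± 0.53, with 1 of 3 arrays well above background, to 3.80 with all 3 (at least 2.42-fold, adjusted p = 0.00185 from limma), and the difference of this change from that in 3c3 did not pass (adjusted p = 0.201).

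*Axin2*, a scaffold and a widely used readout of β-catenin activity, was too dim to test. In Cl19 it stood at 1.73, 0.85 and 0.39 on d0, 2.44, 1.85 and 2.37 on d2, 0.77, 0.33 and 0.53 on d4, and 1.99, 3.06 and 0.88 on d6, with 1 array of d2 and 1 of d6 well above background. In 3c3 *Axin2* read 2.85, 2.59 and 1.45 on d0, with 2 arrays well above background, 2.39, 1.59 and 1.48 on d2, 1.34, 0.31 and 6.08 on d4, and 1.26, 0.30 and 6.42 on d6. The d4 and d6 values of 3c3 replicate 3 stood alone, and both are on the slide with the higher background. Its part in these values was not tested.

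**Figure D3:**
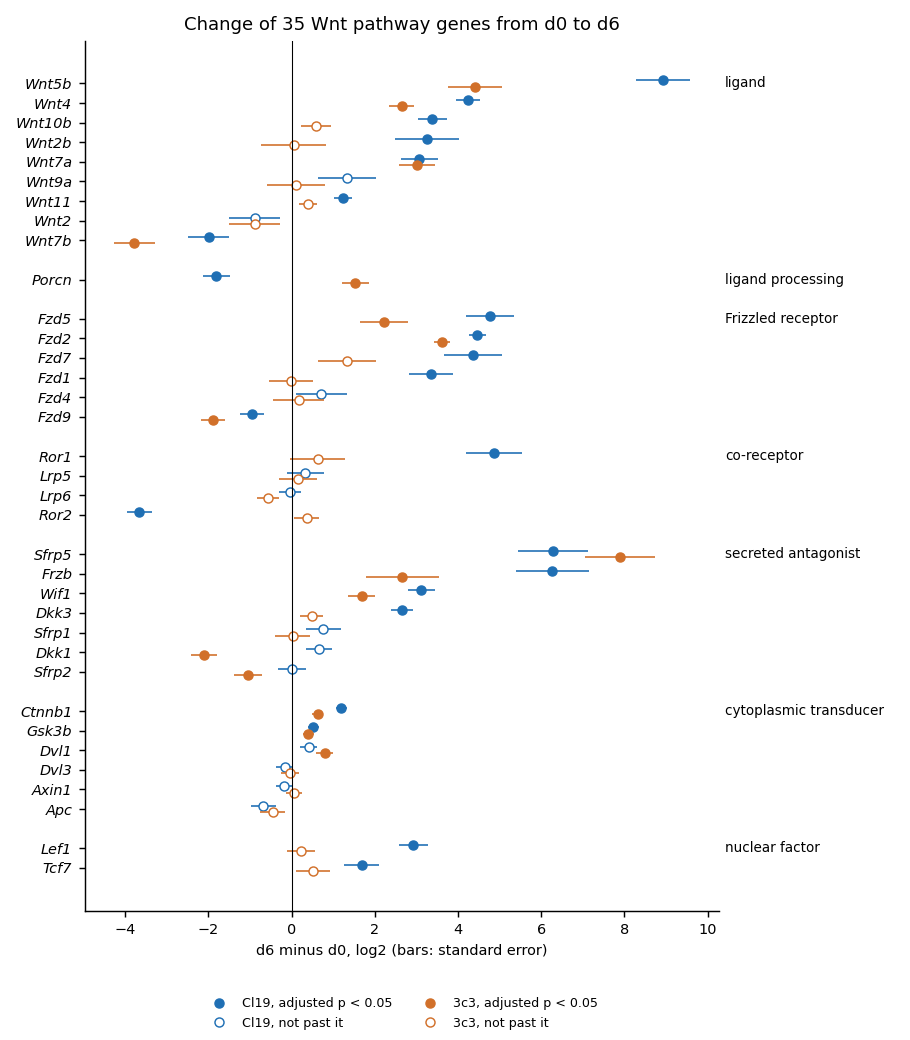
Change from d0 to d6 (horizontal axis, log2, bars give the standard error of the fit) of the 35 tested genes by role, in Cl19 (blue) and 3c3 (orange), with filled points past an adjusted p of 0.05. *Wnt5b* reached 8.93 in Cl19 and *Sfrp5* 7.90 in 3c3, and *Ror2* (-3.66) lay lowest in Cl19 and *Wnt7b* (-3.78) in 3c3.

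The promoters of these genes, from 250 bases before to 50 after the start in RefSeq's GRCr8 table, were searched on both strands for CTTTGAT and CTTTGAA. These are forms of the core letters that Tcf and Lef proteins bind, and other forms were not searched. Of the 49 members 36 had a promoter among the 33469 in the table. CTTTGAT was in 1216 promoters (3.63%) and in those of *Axin2* and *Tcf7*, and CTTTGAA in 1806 (5.40%) and in those of *Axin2*, *Dkk1*, *Fzd7* and *Wnt8a*. Either was in 2921 (8.73%) and in 5 of the 36 members. Of the 10 genes that rose in both clones 8 had a promoter in the table, and none of the 8 held either run of letters. The matches in *Axin2* and *Dkk1* are shown on the gene's strand, since the first is the standard readout and the second fell in 3c3, with the letters searched in capitals. They lie 132 to 126 and 232 to 226 bases before the start of *Axin2* and 96 to 90 bases before that of *Dkk1*. A match describes the letters and does not show that the site is bound.
Axin2, chr10:94398628-94398684, plus strand, GRCr8: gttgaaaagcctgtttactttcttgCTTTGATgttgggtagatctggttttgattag
Axin2, chr10:94398535-94398584, plus strand, GRCr8: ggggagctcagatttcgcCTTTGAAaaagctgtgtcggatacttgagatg
Dkk1, chr1:237798715-237798771, minus strand, GRCr8: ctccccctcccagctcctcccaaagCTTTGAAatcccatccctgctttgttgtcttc

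On d2 the change was already large for a few receptors and antagonists. In Cl19, 10 members were higher and 1 lower than on d0, against 11.2% and 11.5% of all tested probes, with a median of 0.60 over the members and -0.07 over all probes. In 3c3, 4 were higher and 1 lower, against 9.80% and 9.27%, with a median of 0.18. *Sfrp5*, *Fzd2* and *Fzd5* had risen in both clones. *Sfrp5* was up by 5.39 in Cl19 (adjusted p = 9.52e-05 from limma) and by 7.51 in 3c3 (adjusted p = 2.58e-06), *Fzd2* by 2.73 and 2.71 (adjusted p = 1.01e-08 and 1.08e-08), and *Fzd5* by 4.11 and 2.07 (adjusted p = 3.2e-05 and 0.0151).

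The other genes past the threshold on d2 in Cl19 were *Frzb*, *Fzd7*, *Ror1*, *Dkk3*, *Sfrp1*, *Tcf7* and *Wnt4*, which were higher, and *Wnt7b*, which was lower. In 3c3 they were *Porcn*, higher by 1.83 (adjusted p = 0.00039 from limma), and *Sfrp2*, below background on both days. The count in Cl19 rested on single arrays: 6 members passed without Cl19 d0 replicate 1 or d2 replicate 3 and 7 without d0 replicate 2, and with the methods' t-test after Benjamini-Hochberg adjustment 1 did. In 3c3, 3 passed without d2 replicate 1. Without Cl19 d2 replicate 1, 15 members passed in Cl19, 13 higher and 2 lower, with 10 of the 11 genes kept and a median of 0.69 over the members. *Fzd1*, *Fzd4*, *Wnt2b*, *Wnt11* and *Ror2* were then past the threshold as well, and *Wnt4* was not. The values without it were 6.83 for *Sfrp5*, 5.05 for *Fzd5*, 2.89 for *Fzd2* and 2.08 for *Fzd1* (adjusted p = 0.000336). Over the time course 26 members passed in Cl19 with and without this array.

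The clones differed in the size of the d6 change for 17 of the 35 members, by limma's test of the difference between the changes, against 17.4% of all tested probes. The change was higher in Cl19 for 15 of them and lower for *Ror2* and *Porcn*. Since each change is taken within slides, this comparison does not set the clones' levels against each other. *Ror2* differed most by p, by -4.02 (standard error 0.42, adjusted p = 1.72e-06 from limma), followed by *Porcn* with -3.34 (standard error 0.46, adjusted p = 3.45e-05). *Dkk1* differed by 2.77 (standard error 0.44, adjusted p = 0.000152) and *Dkk3* by 2.17 (adjusted p = 0.000436), *Dkk1* through its fall in 3c3 and *Dkk3* through its rise in Cl19.

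*Wnt5b* differed by 4.52 (standard error 0.91, adjusted p = 0.00144 from limma) although it rose in both clones, and so did *Wnt4* by 1.60 (adjusted p = 0.00971), *Fzd5* by 2.55 (adjusted p = 0.0352), *Wif1* by 1.43 (adjusted p = 0.0364), *Ctnnb1* by 0.57 (adjusted p = 0.0376) and *Fzd2* by 0.85 (adjusted p = 0.0387). *Fzd1* (3.37), *Ror1* (4.24), *Lef1* (2.70), *Wnt10b* (2.80), *Fzd7* (3.04) and *Wnt2b* (3.20) passed in Cl19 alone and also differed by the test itself, and *Frzb* differed by 3.61 with an adjusted p of 0.0499. For *Sfrp5* the difference was -1.60 with a standard error of 1.19, for *Wnt7a* 0.06 with 0.62 and for *Wnt7b* 1.79 with 0.70 (adjusted p = 0.448, 0.978 and 0.0892), which does not show that these changes were alike. The values of *Ror1*, *Lef1*, *Wnt10b*, *Fzd7*, *Wnt2b* and *Frzb* include arrays that were not well above background, and *Lef1* and *Wnt10b* were tested through Cl19 d6 alone and *Fzd7* and *Wnt2b* through Cl19 d4 and d6, the clone in which they were bright. With a floor *Wnt2b*, *Wnt10b*, *Lef1* and *Frzb* no longer differed, with 75th percentile scaling *Fzd2*, *Fzd7*, *Ctnnb1* and *Frzb* did not, and with the authors' log2 values *Wnt2b*, *Fzd2*, *Fzd5*, *Fzd7* and *Frzb* did not. Without the high-background slide of 3c3, 10 members differed, and 10 also did without any one of the Cl19 d0 arrays or Cl19 d6 replicate 1.

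**Figure D4:**
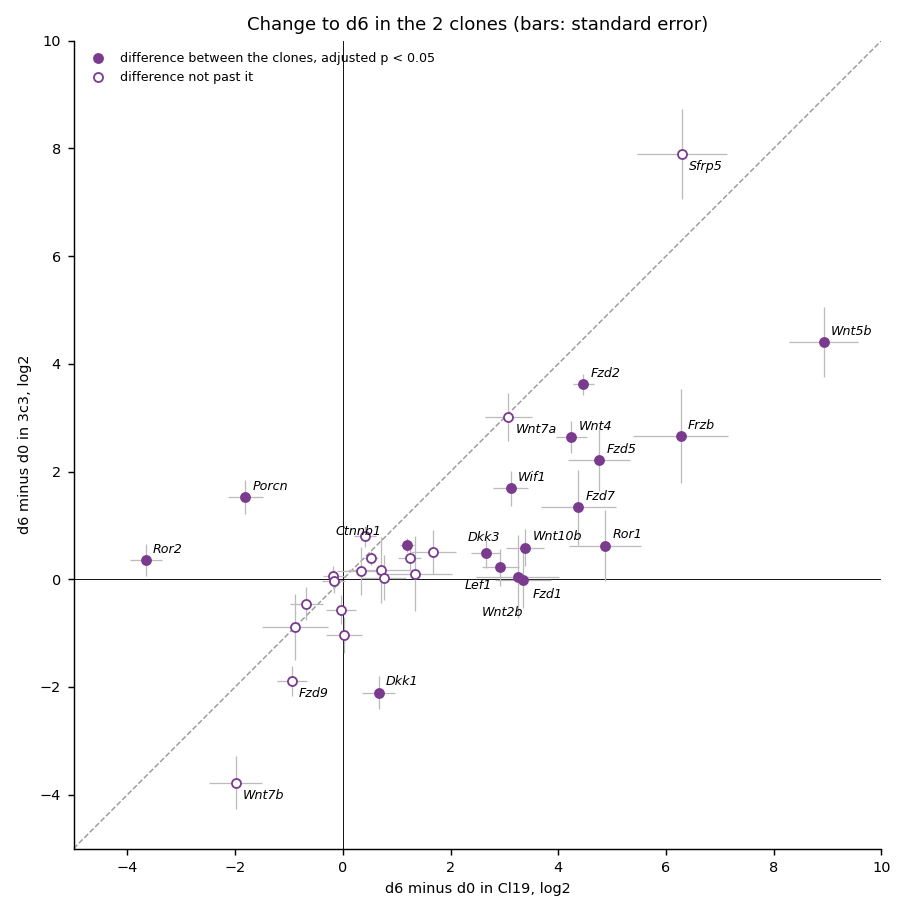
Change from d0 to d6 in 3c3 (vertical axis, log2) against that in Cl19 (horizontal axis, log2) for the 35 tested genes, with standard errors as bars and a dashed line where both are equal. Filled points differed between the clones at an adjusted p below 0.05, with *Ror2* and *Porcn* above the line and the other 15 below it.

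Primary SMC RNA was set against the d6 cells of each clone, and both comparisons share its 2 arrays. Against Cl19 d6, 6 members were higher and 15 lower, while 32.8% of all tested probes were higher and 38.6% lower. Of the 6, *Fzd9* was not well above background on either primary SMC array and was on 1 of 3 d6 arrays. Its call was lost with normexp correction and with the authors' log2 values. Against 3c3 d6, 12 were higher and 13 lower, with 33.4% and 38.1% of all probes. Of these 12, *Fzd4*, *Fzd9* and *Lef1* were not well above background in either group and were lost with a floor, as was *Wnt7b* of the 13, and against Cl19 d6 a floor ended the calls of *Wnt2b*, *Wnt10b* and *Apc*. The median over the members was -0.65 and 0.05, and -0.13 over all probes in both comparisons. With 75th percentile scaling the members' medians were -0.18 and 0.47, beside 0.21 over all probes in both comparisons. With a floor they were -0.24 and 0.67, beside 0.30 and 0.22. With the authors' log2 values, which are not normalized between arrays, the splits were 2 higher and 27 lower, and 2 higher and 20 lower, beside 6.71% higher and 74.1% lower, and 7.59% and 72.2%, of all tested probes.

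Of the 7 tested antagonists, *Dkk1*, *Sfrp1*, *Sfrp5* and *Wif1* were lower in primary SMCs than in d6 cells of both clones. *Dkk1* read 0.38 and 0.33 on the primary arrays, not well above background, at least 376-fold below Cl19 d6 and at least 73.1-fold below 3c3 d6 (adjusted p = 1.19e-16 and 3.71e-15 from limma). *Sfrp5* at 3.94 and 3.18 and *Sfrp1* at 2.11 and 2.66 were not well above background either, at least 1169-fold and 186-fold below Cl19 d6 and at least 129-fold and 127-fold below 3c3 d6. *Wif1* was at least 4.80-fold and 2.30-fold lower. *Sfrp2* was higher: its primary values of 5.62 and 5.01 were well above background and at least 10.13-fold above Cl19 d6 and 5.59-fold above 3c3 d6, where no array was. Its probe entered the test through primary SMCs alone, the group in which it was bright, so that the filter favoured this call. *Frzb*, at 7.64 and 7.79, was at least 11.48-fold above 3c3 d6 (adjusted p = 0.00294 from limma), where 2 of 3 arrays were well above background. It was 0.69 above Cl19 d6 on the log2 scale (adjusted p = 0.538). *Dkk3*, at 9.40 and 9.43, passed in neither comparison, with -0.65 against Cl19 d6 and 0.55 against 3c3 d6 (adjusted p = 0.0609 and 0.112).

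Of the 6 ligands that rose by d6 in Cl19, 5 were lower and *Wnt11* was higher in primary SMCs than on those same d6 arrays, with the calls of *Wnt2b* and *Wnt10b* lost with a floor. Of the 3 that rose in 3c3, *Wnt4* and *Wnt7a* were lower and *Wnt5b* was higher. These ligands were picked for their rise on the same d6 arrays, which favours lower calls. No share of all probes picked in this way was taken. *Wnt4*, at 7.03 and 6.61, was 36.1-fold below Cl19 d6 and 12.8-fold below 3c3 d6, and *Wnt7a*, at 5.46 and 4.95, was 24.0-fold and 8.77-fold below. Both stood near or below the clones' own d0 arrays. *Wnt5b*, at 9.25 and 9.44, lay between the clones, 5.47-fold below Cl19 d6 and 4.27-fold above 3c3 d6 (adjusted p = 0.00511 and 0.0141 from limma). *Wnt11*, at 10.14 ± 0.08 (SD, n = 2), was 3.36-fold and 5.57-fold above d6 cells (adjusted p = 2.2e-06 and 1.73e-08). *Porcn*, at 12.40 and 12.48, was 8.72-fold above Cl19 d6 and 1.24 higher than 3c3 d6 on the log2 scale.

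Among the receptors, *Fzd5* was low in primary SMCs at 3.23 and 4.59, with 1 of 2 arrays well above background, at least 145-fold below Cl19 d6 and 25.3-fold below 3c3 d6. *Fzd1*, at 10.59 and 10.58, was 23.1-fold above 3c3 d6 (adjusted p = 9.88e-07 from limma) and 1.34 above Cl19 d6 (adjusted p = 0.0483). *Fzd2*, at 11.96 and 12.08, was 0.88 above 3c3 d6 (adjusted p = 0.00128), and its difference from Cl19 d6 of -0.41 did not pass (adjusted p = 0.101). The Ror kinases in primary SMCs were nearer to Cl19 than to 3c3: *Ror1*, at 5.88 and 5.82, differed from Cl19 d6 by -0.01 and *Ror2*, at 5.30 and 5.61, by 0.42 (adjusted p = 0.991 and 0.261). Against 3c3 d6, *Ror1* was at least 8.08-fold higher and *Ror2* 8.59-fold lower (adjusted p = 5.34e-05 and 6.53e-08). *Ctnnb1* was 7.48-fold below Cl19 d6 and 4.64-fold below 3c3 d6. With the authors' log2 values the sign turned for *Lrp5*, *Fzd1*, *Fzd9* and *Wnt11* against Cl19 d6 and for *Fzd2*, *Porcn*, *Lrp5* and *Wnt5b* against 3c3 d6, and relative to the median of all probes under that scaling none turned.

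**Figure D5:**
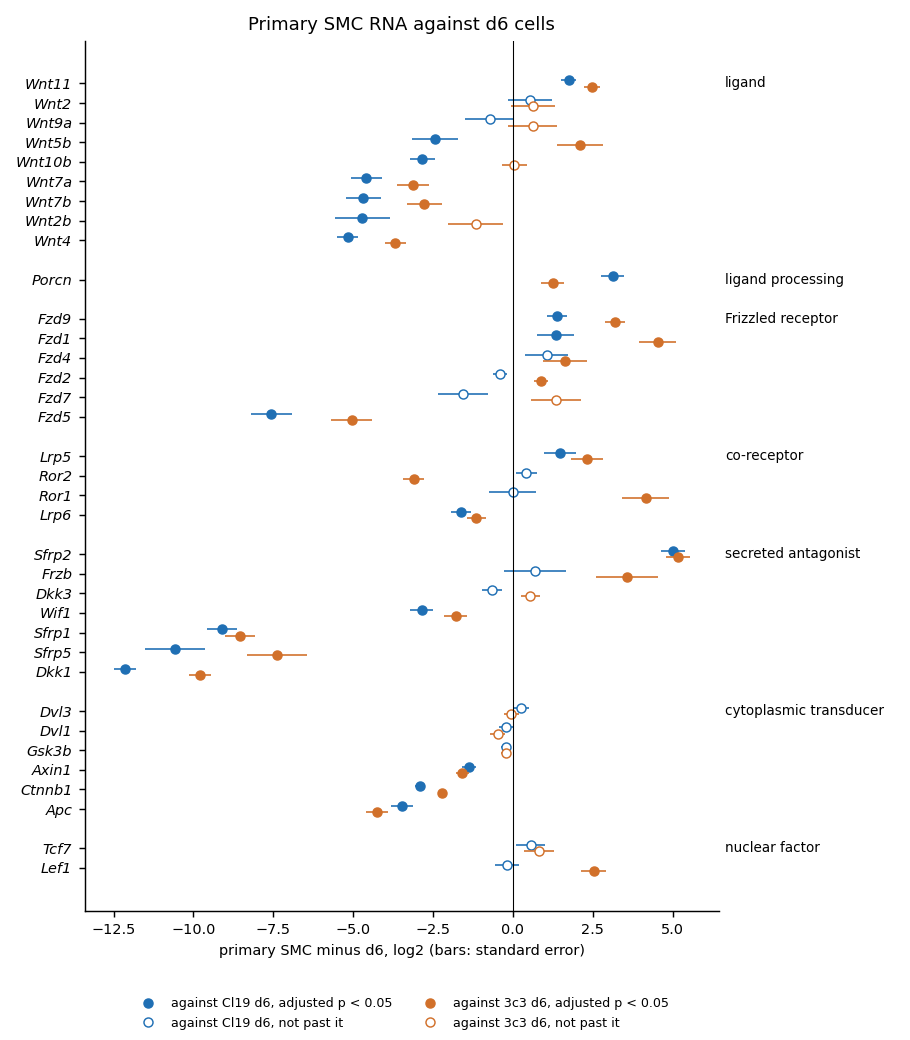
Difference of primary SMC RNA from d6 cells (horizontal axis, log2, bars give the standard error of the fit) for the 35 tested genes by role, against Cl19 (blue) and 3c3 (orange), with filled points past an adjusted p of 0.05. The points of *Dkk1*, *Sfrp5* and *Sfrp1* at the far left and of *Sfrp2* at the far right are fitted values against a group below background, for which lower limits alone hold.

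Other genes of the pathway were taken from 6 lists written from general knowledge. Their counts stand against the shares over all tested probes, 22.0% higher and 30.3% lower by d6 for Cl19 and 19.7% and 28.6% for 3c3. Of genes for agonists, receptor turnover and other Wnt-binding proteins, 10 of 15 were tested, of which 5 rose and 2 fell by d6 in Cl19 (50% and 20.0%) while 2 rose and 3 fell in 3c3 (20.0% and 30.0%). *Gpc4*, a heparan sulfate proteoglycan of the cell surface, rose by 7.10 in Cl19 and 6.39 in 3c3 (adjusted p = 1e-09 and 7.18e-09 from limma). *Rspo3*, a secreted agonist that keeps Frizzleds on the surface, fell by at least 14.5-fold in Cl19 and 5.03-fold in 3c3 (adjusted p = 1.02e-06 and 0.00144), with 1 and 2 of 3 d6 arrays well above background. *Lgr5*, a receptor of such agonists and itself a β-catenin target, rose by at least 5.76-fold in Cl19 (adjusted p = 0.000128), where 1 of 3 d0 arrays was well above background, and it did not pass in 3c3 (adjusted p = 0.115).

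Of 19 regulators of the destruction complex 14 were tested, of which 6 rose and 2 fell in Cl19 (42.9% and 14.3%) while 2 rose and 2 fell in 3c3 (14.3% each). *Dact1* and *Dact2*, whose products bind Dvl proteins, rose in both clones. *Dact1* rose by 6.55 in Cl19 and by at least 24.0-fold in 3c3, and *Dact2* by at least 13.5-fold and 6.49-fold, since *Dact1* in 3c3 and *Dact2* in both clones had no d0 array well above background. Among 16 tested of 17 nuclear partners 5 rose and 4 fell in Cl19 (31.2% and 25%) and 3 rose and 4 fell in 3c3 (18.8% and 25%), close to the shares over all probes. *Tle1*, a co-repressor of Tcf proteins, rose by 1.18 in Cl19 and fell by 0.89 in 3c3 (adjusted p = 0.000395 and 0.00497 from limma). Of 10 further antagonists and their partners 4 were tested, with 1 higher and 1 lower in Cl19 and 1 lower in 3c3, and of 18 genes of the planar polarity and calcium branch 15 were, with 3 and 3 in Cl19 (20.0% each) and 2 and 3 in 3c3 (13.3% and 20.0%).

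Of 18 textbook targets of β-catenin 15 were tested, of which 6 rose and 5 fell in Cl19 (40.0% and 33.3%) while 7 rose and 2 fell in 3c3 (46.7% and 13.3%). The median change was 0.70 and 0.87, against -0.20 and -0.21 over all probes. *Bmp4*, *Fosl1*, *Jun* and *Cdx2*, which other signals also drive, rose in both clones, *Bmp4* by 5.60 and 4.38 and *Fosl1* by 3.14 and 2.03. *Mycn* and *Nrcam* fell in both, *Nrcam* to below background on every d6 array. *Ccnd1*, which encodes cyclin D1, fell by 3.61 in Cl19 and rose by 0.87 in 3c3 (adjusted p = 5.63e-08 and 0.0457 from limma). *Sp5*, a direct target in many tissues, was not well above background on d0 in Cl19 and was at least 1.78-fold higher on d6 (adjusted p = 0.00107), and in 3c3 it was not well above background on d0 or d6. Among the groups of d0, d2, d6 and primary SMCs, Cl19 d6 alone had *Sp5* well above background. The filter therefore favoured this call. *Myc* fell by 1.31 in Cl19 (adjusted p = 0.00275) and changed by -0.04 in 3c3 (adjusted p = 0.931).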

How the data were processed

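Total RNA was labelled with Cy3 and each sample hybridized alone to 1 Agilent rat array. The authors deposited the scanner intensity of each feature from Agilent Feature Extraction 10.1.1.1 (per the submitters' processing notes), already corrected for background, and a table of log2 values that equals the log2 of these deposited intensities to within 5.15e-14 and so holds no normalization between arrays. Samples were grouped from their labels by clone and day.

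Here quantile normalization over the 26 arrays was applied to log2 intensities of all 43379 gene features, and features of a probe were averaged. This removes a shift shared by most genes. The 24442 probes well above background on all arrays of at least 1 group were fitted with limma 3.58.1 in R 4.3.3 over all groups, without a block, and p-values were adjusted by Benjamini-Hochberg over all of them. The procedure was tested on simulated data with independent noise on each array. These held neither deviations shared within a slide nor a background floor, so that the fit was not tested under either. Members and lists were chosen with earlier results of these data known. Every member on the array is named. Array values are given for the 12 members with the largest d6 change, averaged with its sign over both clones, among those past the F-test in both, for the 6 next with the smallest p of the difference between clones, and for *Ctnnb1*, *Axin2* and *Lef1*. For *Frzb* and *Fzd7*, and for *Sfrp1* and *Sfrp2* in primary SMCs, they were added after their values were seen, and so were the pathway genes named from the lists.

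Replicate numbers pair the arrays by slide: deviations from group means correlated by over 0.1 in 18 of 18 pairs of arrays in 3c3 and in 16 of 18 in Cl19 (lowest 0.06). Alternatives were other scalings, background corrections, filters, tests and blocks, and leaving out arrays. The methods' area method was rebuilt with 50000 profiles. No group has 4 or more arrays, so that single outlying arrays were not tested for.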

Additional observations from a re-analysis of the deposited data

Results flagged for a closer look

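The change from d0 to d6 differed between Cl19 and 3c3 for 17 members by limma's test of the difference itself, and each value below is the Cl19 change minus the 3c3 change on the log2 scale. It was lower in Cl19 for *Ror2* (-4.02) and *Porcn* (-3.34). It was higher in Cl19 for the ligands *Wnt5b* (4.52), *Wnt2b* (3.20), *Wnt10b* (2.80) and *Wnt4* (1.60), for the receptors *Ror1* (4.24), *Fzd1* (3.37), *Fzd7* (3.04), *Fzd5* (2.55) and *Fzd2* (0.85), for the antagonists *Frzb* (3.61), *Dkk1* (2.77), *Dkk3* (2.17) and *Wif1* (1.43), and for *Lef1* (2.70) and *Ctnnb1* (0.57). For *Wnt2b*, *Wnt10b*, *Ror1*, *Fzd7*, *Frzb* and *Lef1* the values include arrays that were not well above background. *Wnt2b*, *Wnt10b*, *Fzd7* and *Lef1* were tested through Cl19 alone, where they were bright. The calls of *Wnt2b*, *Wnt10b*, *Fzd2*, *Fzd5*, *Fzd7*, *Frzb*, *Lef1* and *Ctnnb1* were lost with another scaling, the authors' log2 values or a floor. With 1 array left out the count fell to as few as 10.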

How the results depend on the processing

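Counts are of members past the threshold. The d6 counts (23 in Cl19, 16 in 3c3) were 21 to 25 and 13 to 18 under the alternatives, and 23 to 25 and 15 to 17 with 1 array left out. Over time they were 20 to 28 in Cl19 (26 to 27 with 1 array left out), and in 3c3 7 with the methods' area method, which called 15.8% of all probes there, otherwise 12 to 19 (14 to 16). The d2 count of Cl19 (11) was 7 without a filter on dim probes, 1 with the methods' t-test after Benjamini-Hochberg, and 6 to 15 with 1 array left out, with 6 without Cl19 d0 replicate 1 or d2 replicate 3 and 7 without d0 replicate 2. That of 3c3 (5) was 8 in a fit over only these groups, 3 without the high-background slide, 9 with the unadjusted t-test of the methods, and 3 to 6 with 1 array left out, with 3 without 3c3 d2 replicate 1. The count that differed between clones (17) was 11 without a filter, 10 without the high-background slide, and 10 to 15 with 1 array left out, with 10 without Cl19 d0 replicate 1, 2 or 3 or Cl19 d6 replicate 1 and 11 without 3c3 d0 replicate 1 or 3c3 d6 replicate 2 or 3. Primary SMC counts were 20 to 29 (20 to 21 with 1 array left out) against Cl19 and 20 to 26 (23 to 26) against 3c3, and with slides as a random block 20 and 24. With the replicate block they were 27 and 17 over time, 14 and 6 on d2, 24 and 16 on d6, and 19 for the difference, so that the block moved no count by over 1.5 times. Of 522 repeats of 36 changes of single genes, 501 kept direction and side of the threshold, 8 fell short of it, 3 newly passed it (*Dkk1* in Cl19 without d6 replicate 3, and in 3c3 *Ror2* with the authors' values and *Wnt10b* without d6 replicate 2) and 10 turned. All that turned were in 3c3: *Fzd9* with a floor (0.16), *Wnt10b* and *Ror1* with normexp (-0.033 and -0.024), *Lef1* with 1 array left out (-0.043 to 0.37, negative without d6 replicate 3), and *Fzd1* with 75th percentile scaling (0.053), normexp (0.028), the authors' values (0.36) and 1 array left out (-0.55 to 0.46, positive without d0 replicate 1, d6 replicate 2 or d6 replicate 3). In Cl19 *Fzd9* fell short at -0.79 with 75th percentile scaling and -0.10 with normexp. Under the alternatives other than single arrays left out, *Wif1* changed by as little as 1.00 in Cl19 and 0.46 in 3c3. For *Wnt5b* this was 5.71 and 1.78, for *Wnt7b* -1.19 and -1.61, and for *Sfrp5* in 3c3 4.74. These changes stayed past the threshold throughout. Normexp gave smaller changes of dim genes, 0.38 for *Wnt10b*, 0.24 for *Lef1* and 0.88 for *Ror1* in Cl19. The cause was not tested. The median of all probes in primary SMCs against d6 was -2.17 and -2.09 with the authors' values, 0.21 in both with 75th percentile scaling, and 0.30 and 0.22 with a floor.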
